A study of Homo sapiens and Mus musculus with 20 samples.

Results

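Satb1 peaks mapped after camptothecin were compared directly with Satb1 peaks mapped after ICRF-193, in human MCF10A cells, as 24475 and 37350 regions of hg19. A peak was counted as shared when it overlapped a peak of the other list by 1 bp or more. Together they make up 61825 of the 580254 peaks in the 7 MCF10A lists used. The overlap gave 23001 shared and 1474 camptothecin-only peaks, and 22928 shared and 14422 ICRF-193-only peaks. MCF10A is a mammary epithelial cell line without native Satb1. Cells of both groups carried a stably integrated lentiviral construct for full-length Satb1 fused to eGFP, driven by a cumate-inducible promoter, and were sorted by FACS. They received either drug for 2 h before fixation, and chromatin was precipitated with a GFP antibody. Doses are not given in the sources used here. The lists set beside them came from cells without drug: full-length Satb1, Satb1 without its homeodomain (∆HD), the N-terminal part with the first CUT domain (N-C1), and ATAC-seq of native and Satb1-expressing cells. With 1 list per condition there is no spread between replicates to compare a difference with, and p-values are therefore left out. Intervals are exact 95% Clopper-Pearson intervals for shares and normal 95% intervals for means, and they cover counting error only.

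Topoisomerases relieve the torsion that transcription and replication build up in DNA. Camptothecin traps topoisomerase I on a nicked strand, whereas ICRF-193 holds topoisomerase II as a closed clamp without leaving it bound to broken DNA. Satb1 is a genome organizer with CUT domains and a homeodomain that binds A/T-rich DNA prone to unwinding. The comparison asks whether the same sites are bound under inhibition of either enzyme.

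The sequences of 8 windows of 200 bp at peak midpoints show what the classes look like, taken from the plus strand of hg19. Capitals mark matches to YTAWTAR (with Y for C or T, W for either A or T, and R for a purine), a consensus that reads the same on both strands. The first pair are the 2 strongest peaks of both lists, followed by 2 of the 5 strongest of each drug-specific class and by the shared peaks with the largest rank difference in each direction.
Shared, rank 1 in both lists, chr9:70931537-70931736: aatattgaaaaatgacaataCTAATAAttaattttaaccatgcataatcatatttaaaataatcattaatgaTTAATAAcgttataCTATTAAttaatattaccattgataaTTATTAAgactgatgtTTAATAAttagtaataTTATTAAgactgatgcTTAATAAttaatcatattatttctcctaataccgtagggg
Shared, rank 2 in both lists, chr13:104890806-104891005: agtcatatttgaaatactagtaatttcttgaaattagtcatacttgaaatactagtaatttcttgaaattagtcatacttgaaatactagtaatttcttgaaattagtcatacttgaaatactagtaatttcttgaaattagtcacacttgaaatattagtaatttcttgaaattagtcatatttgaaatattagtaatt
Camptothecin-only, near TAFA2, chr12:61773487-61773686: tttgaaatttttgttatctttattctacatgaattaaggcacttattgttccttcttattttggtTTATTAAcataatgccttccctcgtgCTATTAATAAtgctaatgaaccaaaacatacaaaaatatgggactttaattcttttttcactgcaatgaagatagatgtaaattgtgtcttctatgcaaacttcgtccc
Camptothecin-only, in CXADR, chr21:18917139-18917338: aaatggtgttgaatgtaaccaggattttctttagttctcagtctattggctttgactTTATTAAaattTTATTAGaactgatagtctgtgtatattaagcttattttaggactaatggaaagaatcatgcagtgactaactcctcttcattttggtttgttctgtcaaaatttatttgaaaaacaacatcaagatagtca
ICRF-193-only, near AKR1C1, chr10:4958588-4958787: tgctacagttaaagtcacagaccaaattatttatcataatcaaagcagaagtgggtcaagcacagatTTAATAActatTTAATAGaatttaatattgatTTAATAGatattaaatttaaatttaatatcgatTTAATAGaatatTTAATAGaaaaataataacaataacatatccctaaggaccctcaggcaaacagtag
ICRF-193-only, near ENPP1, chr6:132100855-132101054: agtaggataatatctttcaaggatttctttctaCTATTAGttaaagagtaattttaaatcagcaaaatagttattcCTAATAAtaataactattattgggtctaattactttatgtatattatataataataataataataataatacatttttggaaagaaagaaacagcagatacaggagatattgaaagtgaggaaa
Shared, ranked higher with ICRF-193, chr9:11535365-11535564: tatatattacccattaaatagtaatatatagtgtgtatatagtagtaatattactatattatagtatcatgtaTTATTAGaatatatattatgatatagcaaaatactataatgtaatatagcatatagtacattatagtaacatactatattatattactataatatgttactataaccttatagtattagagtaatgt
Shared, ranked higher with camptothecin, chr4:116216002-116216201: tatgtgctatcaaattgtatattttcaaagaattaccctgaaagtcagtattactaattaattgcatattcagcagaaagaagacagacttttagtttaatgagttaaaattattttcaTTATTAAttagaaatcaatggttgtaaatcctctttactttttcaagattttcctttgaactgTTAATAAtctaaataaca

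The strongest Satb1 sites were the same under both drugs, to the order of the first 3 ranks. The first lay 11.5 kb downstream of FOXD4L3, a forkhead gene, with a fold enrichment over local background of 78.3 after camptothecin and 86.6 after ICRF-193. Its 200 bp held 81% A/T and 7 consensus matches. FOXD4L3 belongs to a family of near-identical copies, so reads at this peak may come from more than 1 copy. The second lay 1172 kb upstream of SLC10A2, the ileal bile acid transporter, at 75.002 and 85.4. Its window repeated 1 short unit, with 78.5% A/T and 0 matches to YTAWTAR. The third lay 145 kb upstream of DNAJC19 at chr3:180851665-180852963, at 68.5 and 79.1, with 10 matches in 400 bp. All 3 were also present in the untreated, ∆HD and N-C1 lists.

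Nearly all camptothecin peaks were found again with ICRF-193, but not the reverse. Of the camptothecin peaks, 94.0% overlapped an ICRF-193 peak (interval 93.7 to 94.3). Of the ICRF-193 peaks, 61.4% overlapped a camptothecin peak (60.9 to 61.9). The share found again rose with peak strength in both directions. The rule itself favours this, since weak peaks more easily fall under the threshold of the other list. In the weakest 10% of each list, 74.5% of camptothecin peaks and 16.4% of ICRF-193 peaks were found again. In the eighth of 10 bands of rising strength these shares were 100% and 97.5%, and in the strongest both were 100%. No peak with a fold enrichment of 15 or more was specific to a drug, among 2699 camptothecin and 4815 ICRF-193 peaks. From a fold enrichment of 8 upwards, 1 of 8720 camptothecin peaks and 388 of 14079 ICRF-193 peaks were drug-specific.

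**Figure D1:**
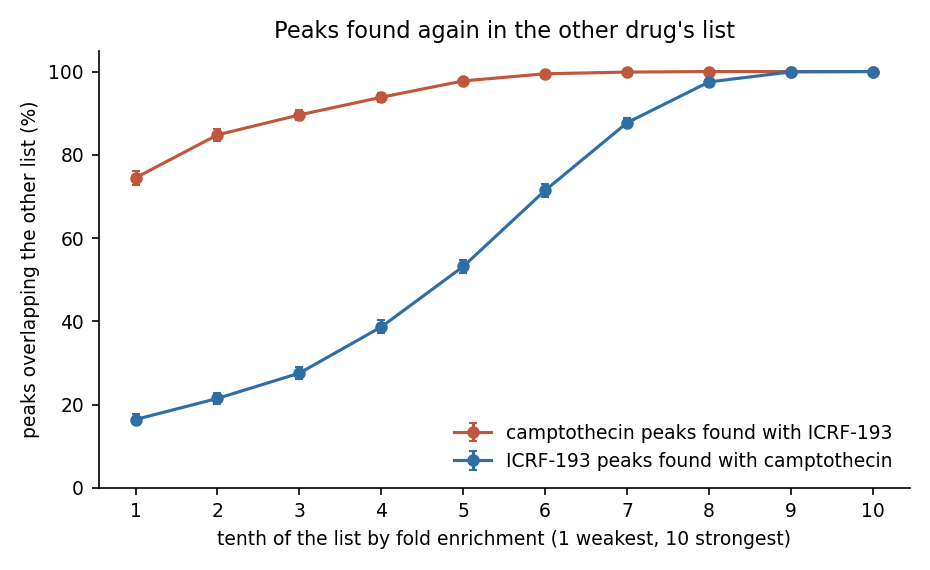
Share of peaks overlapping the other drug's list (%, vertical) against 10 bands of each list by fold enrichment (horizontal, 1 weakest and 10 strongest), with exact 95% intervals. The ICRF-193 curve rises from 16.4% to 100%, and the camptothecin curve from 74.5% to 100%.

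With equal numbers of top-ranked peaks most, but not all, sites were shared. Among the top 24475 of each list, 81.4% of camptothecin peaks overlapped an ICRF-193 peak (80.9 to 81.9), which left 4544 camptothecin-only and 4619 ICRF-193-only peaks. Equal numbers make the share from the ICRF-193 side nearly the same. The share was 87.5% for the top 1000, 88.7% for the top 2000, 88.3% for the top 5000, 86.5% for the top 10000 and 83.6% for the top 20000. Of these camptothecin-only peaks, 3070 (67.6%) overlapped an ICRF-193 peak further down its list. All of the top 5000 peaks of each drug were somewhere in the full list of the other.

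At shared sites the order of the peaks was closely similar. Each peak was used once, giving 22907 pairs, with a Spearman rho of 0.8802 between the fold enrichments. The pairs shared genome position and the same input background, which is part of what rho measures. The 2 summits of a pair lay 24 bp apart at the median, and 94.9% of pairs had summits within 100 bp.

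The values themselves were higher after ICRF-193. The fold enrichment was higher with ICRF-193 at 20513 of 22907 pairs (89.5%), with medians of 6.82 for camptothecin and 9.09 for ICRF-193. The read pileup at each summit was recovered from the deposited fold enrichment and p-value, a step chosen after the data were seen. Both lists had the same background of 2.23 scaled reads at a position. A single read counted 0.584 in the camptothecin list and 0.630 in the ICRF-193 list, so the camptothecin library was 1.08 times as deep. Scaled to equal depth, the summit pileup ratio of ICRF-193 over camptothecin had a median of 1.29 at 18610 pairs. At the 12642 pairs with a geometric mean pileup above 20, here called strong pairs, it was 1.33 (quartiles 1.19 and 1.51), and it exceeded 1 at 94.5% of them. Amount of fusion protein, efficiency of precipitation and drug cannot be told apart with 1 library each. A summit is the highest point of its own peak, so each pileup is a selected maximum.

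**Figure D2:**
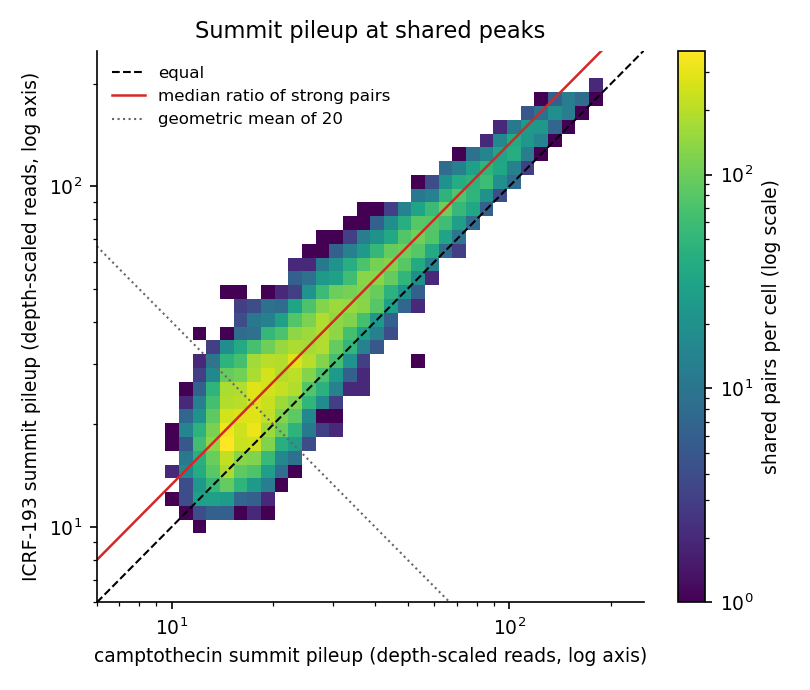
Depth-scaled summit pileup after ICRF-193 (vertical, log axis) against camptothecin (horizontal, log axis) at 18610 shared pairs, colored by pairs per cell. The cloud lies above the dashed line of equality, along the red line at the median ratio of strong pairs, 1.33, and approaches equality at the highest pileups; the dotted line marks a geometric mean of 20.

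Medians of the pileup ratio moved little with chromosome, annotation and accessibility. They ran from 1.30 on chromosome 22 to 1.38 on chromosome 21. Introns and intergenic sites both had a median of 1.33. Pairs on ATAC-seq peaks of Satb1-expressing cells had 1.32 against 1.33 elsewhere. Across 5 bands of strong pairs by mean pileup they were 1.32, 1.35, 1.36, 1.35 and 1.30. In these bands the SD of the log2 ratio fell from 0.32 to 0.18, below the 0.35 to 0.19 estimated for counting alone. The estimate thus exceeded the observed SD, and differences between sites could not be separated from counting with it. The ratio of fold enrichments, over all 22907 pairs, was lowest at both ends. Its median was 1.15 for a mean fold enrichment under 6 (5409 pairs), 1.30 for 6 to 8, 1.33 for 8 to 12 and for 12 to 20, 1.29 for 20 to 40 and 1.16 for 40 or more (301 pairs). The strongest peak would hold 431 reads with camptothecin and 442 with ICRF-193 at the common background. The methods name default parameters of MACS2, which keep 1 read per position and strand. Over the shortest peak width of 250 bp this allows at most 500 reads, and the part of such a ceiling was not tested.

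The pileup ratio rose with the A/T content of the site. With strong pairs in 5 bands of A/T content, its median was 1.27 in the lowest (48.5% to 70.5% A/T), then 1.31, 1.33 and 1.36, and 1.42 in the highest (78.5% to 99.5%). The order was kept at each number of CTAATAR matches from 0 to 2 and within the weakest, middle and strongest of the 5 bands of mean pileup. Among the strongest pairs it ran from 1.26 to 1.36. Across all strong pairs the Spearman rho of ratio with A/T content was 0.213. The surrounding DNA showed less of this, with medians from 1.32 to 1.35 across 5 bands of A/T content in 100 kb. Base composition also affects amplification of libraries, and its part was not tested.

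The ratio fell with the number of matches to CTAATAR, the stricter form of the consensus (CTAATAA or CTAATAG on either strand, each also a match to YTAWTAR). The median was 1.37 at 4294 strong pairs without a match, 1.33 with 1, 1.31 with 2, 1.28 with 3 and 1.24 with 4 or more (196 pairs). With the number of YTAWTAR matches it was 1.34 at 0 matches and moved from 1.36 at 1 to 1.29 at 8 or more. Sites without a called peak of the shortened proteins had the highest ratios. The median was 1.31 where both ∆HD and N-C1 had a peak (10758 pairs), 1.43 with N-C1 only (995), 1.41 with ∆HD only (93) and 1.58 with neither (796). N-C1 lacks the second CUT domain and the homeodomain, and ∆HD lacks the homeodomain. Among pairs with both, the bands of A/T content ran from 1.27 to 1.35, with 1.35 in each of the 2 highest. Of the 889 strong pairs absent from N-C1, 709 lay in the highest band of A/T content, with a median of 1.58. The groupings by A/T content and by construct thus overlap.

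**Figure D3:**
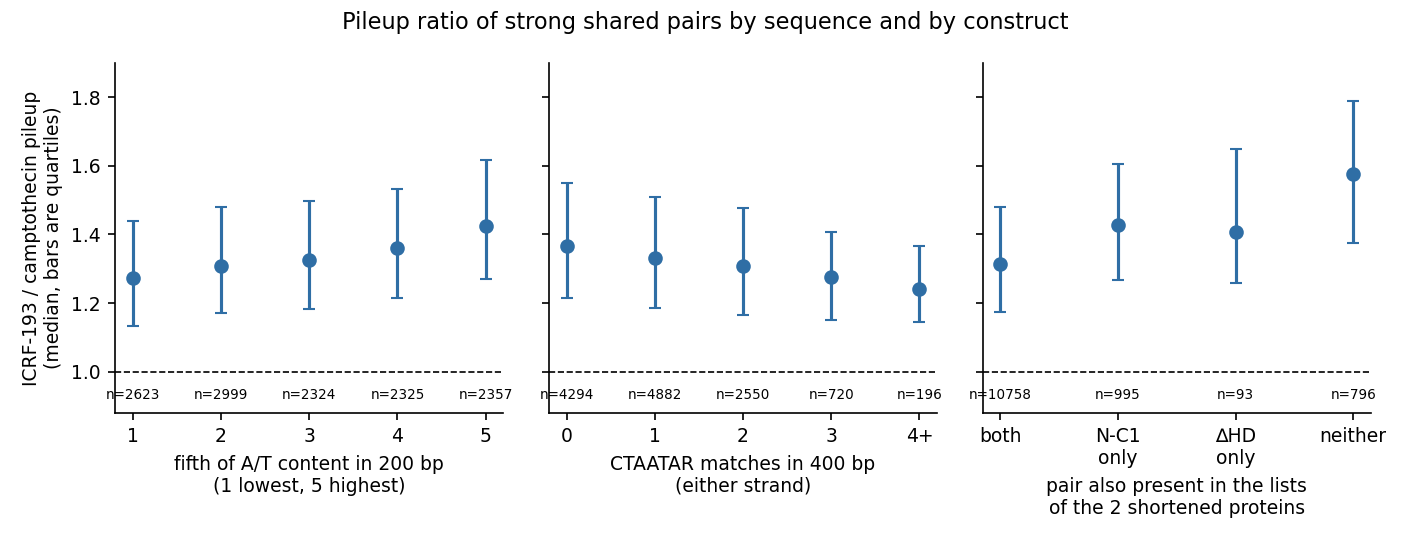
Median ICRF-193 over camptothecin pileup ratio of strong shared pairs (vertical, bars are quartiles) by band of A/T content, by number of CTAATAR matches and by presence in the ∆HD and N-C1 lists (horizontal). The median rises from 1.27 to 1.42 with A/T content, falls from 1.37 to 1.24 with matches, and is 1.58 where neither construct had a peak.

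Scaled by background, camptothecin pileups lay near the untreated values and ICRF-193 pileups above them. At 11247 pairs also present in the untreated list, taken with the same limit of 20 on the geometric mean of the 3 pileups, scaled by background, pileup over background relative to untreated was 0.934 at the median with camptothecin and 1.248 with ICRF-193. From the lowest to the highest of 5 bands of A/T content it went from 0.809 to 1.06 with camptothecin and from 1.03 to 1.502 with ICRF-193. From 0 to 4 or more CTAATAR matches it went from 0.962 to 0.856 and from 1.31 to 1.08. These ratios share the untreated values and are given side by side. The untreated library was 1.56 times as deep as the ICRF-193 library, and its shortest peaks were 219 bp against 250 bp. Its background was 1.95 scaled reads, against 2.23 with either drug. The level of both ratios depends on dividing by these backgrounds, and other scalings were not tested.

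Drug-specific peaks were weak, and the classes differed little in sequence. The overlap rule itself places list-specific peaks among weak peaks, so their low strength is no separate result. The median fold enrichment was 4.65 for camptothecin-only peaks, against 6.82 for shared peaks of the camptothecin list. It was 5.26 for ICRF-193-only peaks, against 9.09 for shared peaks of the ICRF-193 list. A/T content over 200 bp was 71.3% (SD 4.52 across peaks) in camptothecin-only, 72.9% (SD 4.84) in ICRF-193-only and 73.6% (SD 5.10) in shared peaks, against 59.1% of the genome. ICRF-193-only peaks thus held 1.60 percentage points more A/T than camptothecin-only peaks (1.36 to 1.85), and 1.85 points more with equal numbers. The equal-number classes differed in strength, with median fold enrichments of 4.83 for camptothecin-only and 6.41 for ICRF-193-only peaks. In the whole lists, flanks 1000 to 2000 bp away held 63.5% in camptothecin-only and 63.0% in ICRF-193-only peaks.

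A YTAWTAR match within 400 bp was present in 91.5% of camptothecin-only peaks (90.0 to 92.9), 94.5% of ICRF-193-only peaks (94.1 to 94.8) and 96.3% of shared peaks, against 25.8% of all 400 bp tiles of the genome. For specific peaks at least 1000 bp from the other list, the difference of 2.96 points fell to 1.047 (-0.323 to 2.42). CTAATAR went the other way, at 59.0% (56.4 to 61.5) and 56.8% (56.0 to 57.6), with intervals that overlap, and 64.1% in shared peaks against 10.1% of tiles. Shared peaks held more matches: 9.45% held 5 or more, against 1.63% and 2.01% of drug-specific peaks. Strength was not matched here, since 59.7% of these shared peaks had a fold enrichment of 8 or more, against 0.0678% and 2.69%. Between 6 and 8 in the ICRF-193 list, the mean number of matches was 2.46 in shared and 2.30 in ICRF-193-only peaks. Neighbouring matches lay 37 bp apart at the median in shared peaks, 55 bp in camptothecin-only and 51 bp in ICRF-193-only peaks. More matches in a fixed window lie closer, and their mean number, 2.77, 2.03 and 2.15, was not matched. Among 1098 6-mers present in at least 5% of a specific class, 0 (0%) were 1.5-fold more frequent in ICRF-193-only peaks and 1 (0.0911%) in camptothecin-only peaks, AGTCAC, at 8.21% against 5.38%. With equal numbers, AGTCAC stood at 6.82% against 5.11% and none passed 1.5-fold. The largest ratios towards ICRF-193 were those of TTATAA, 1.27-fold, and TAACTA, 1.26-fold. TATATA had the highest median pileup ratio of the 1069 6-mers found in 500 or more strong pairs, 1.37, and AGGCAG the lowest, 1.27.

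ICRF-193-only peaks also differed from shared peaks in the same band of fold enrichment in that list. The bands are wide, so strength was not matched within them. Shared peaks were called with both drugs, which by definition favours their presence in any further list. Between fold enrichments of 6 and 8, A/T content was 73.6% in 3068 ICRF-193-only and 72.7% in 5431 shared peaks. CTAATAR was present in 58.1% (56.3 to 59.8) and 64.3% (63.0 to 65.6). The ∆HD list held 65.4% and 84.0% of them, and the N-C1 list 77.2% and 91.3%. The untreated list likewise held 35.2% and 67.6%. Between 8 and 13.0 the contrast was wider, with A/T content of 75.3% against 73.5% and N-C1 peaks at 69.3% (64.5 to 73.9) against 91.7% (91.0 to 92.3). In the band from 6 to 8, the share found again with camptothecin fell from 67.7% in the lowest of 5 bands of A/T content to 56.0% in the highest. It rose from 60.1% without a CTAATAR match to 75.8% with 3.

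**Figure D4:**
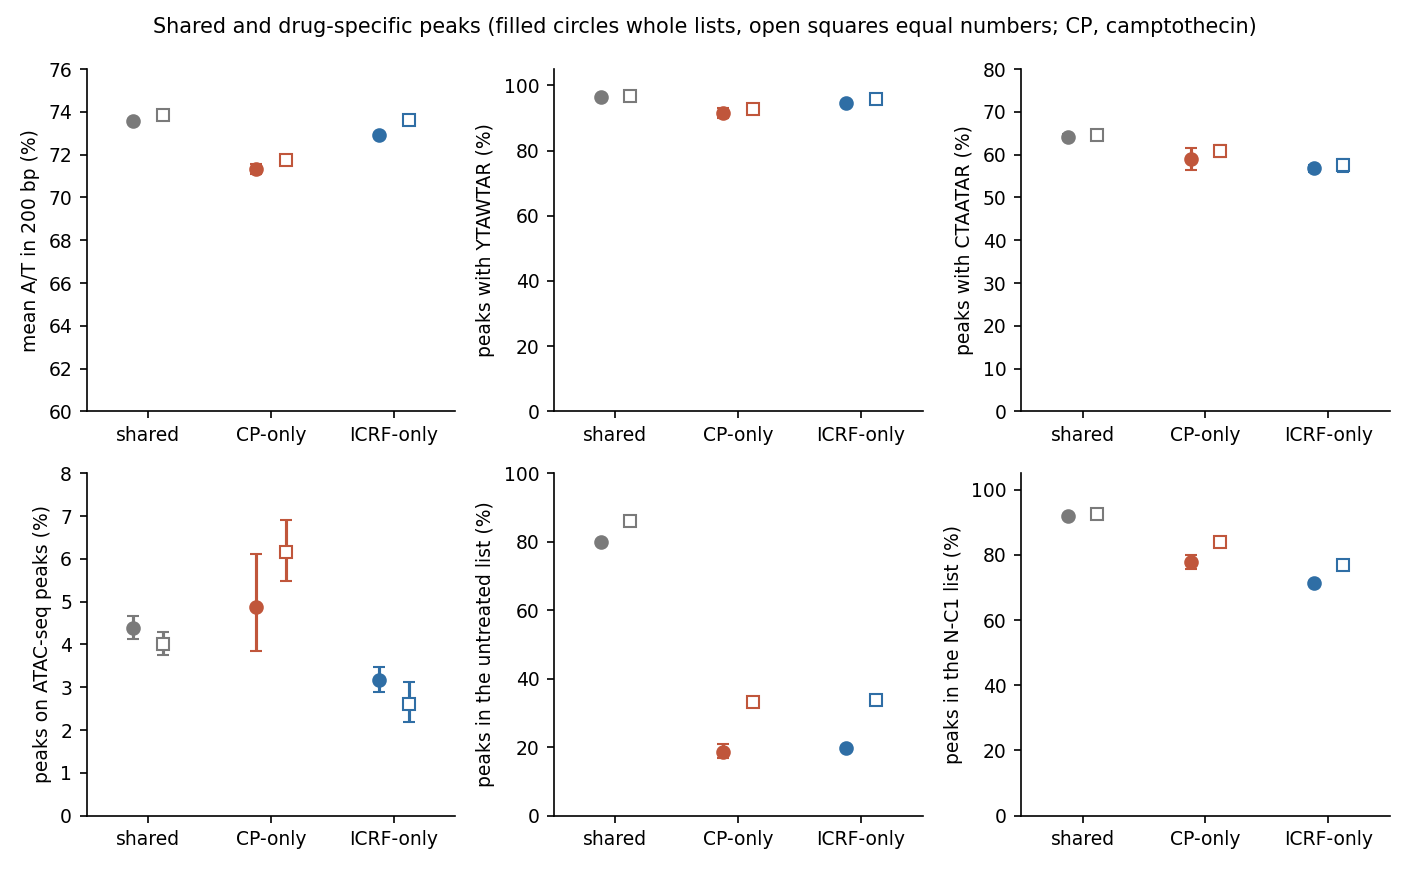
Mean A/T content and shares of peaks with each motif, on ATAC-seq peaks, in the untreated list and in the N-C1 list (vertical, %, the A/T axis starts at 60) for shared, camptothecin-only (CP-only) and ICRF-193-only peaks, with 95% intervals. Filled circles are whole lists and open squares equal numbers; ICRF-193-only peaks lie above camptothecin-only peaks in A/T content (72.9% against 71.3%) and below them on ATAC-seq peaks (3.17% against 4.88%).

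Few drug-specific peaks lay in accessible chromatin. ATAC-seq peaks of untreated Satb1-expressing cells covered 8.95% of the genome and touched 4.88% of camptothecin-only (3.84 to 6.11), 3.17% of ICRF-193-only (2.89 to 3.47) and 4.39% of shared peaks. With equal numbers the first pair became 6.16% (5.48 to 6.90) and 2.62% (2.18 to 3.12). These 2 classes were unlike. Of the 4544 camptothecin-only peaks, 3070 overlapped an ICRF-193 peak further down its list. All 4619 ICRF-193-only peaks were absent from the full camptothecin list. With ATAC-seq of native cells, which covered 5.76%, the whole lists gave 3.32% (2.47 to 4.37) and 2.77% (2.51 to 3.05), with overlapping intervals. The interval of the difference with Satb1-expressing cells also reached 0 for specific peaks at least 1000 bp from the other list (-2.15 to 0.0687). No ATAC-seq of drug-treated cells was used. Most drug-specific peaks were absent from the untreated list, which held 18.7% of camptothecin-only and 19.7% of ICRF-193-only peaks, a difference of 0.961 points (-1.13 to 3.06), and 79.9% of shared peaks. Averaged over 4 bands of fold enrichment the difference turned to -3.07 points (-5.05 to -1.09). The construct lists, for which the paper reports more sites than for full-length Satb1, held more of them. These shares were still below those over all peaks. N-C1 had 77.8% of camptothecin-only and 71.4% of ICRF-193-only peaks, against 90.8% and 83.9% of the whole lists. ∆HD had 63.8% and 59.0%, against 82.6% and 74.3%. In none of the 3 lists were 17.8% (15.9 to 19.8) and 23.6% (22.9 to 24.3).

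The 5 strongest camptothecin-only peaks ran from a fold enrichment of 8.09 to 7.36, or 43 to 39 reads at the summit. The strongest, 394 kb upstream of SYT4 (a synaptotagmin), was 15.4 kb from the nearest ICRF-193 peak and had 65% A/T. The next lay 328 kb downstream of TAFA2 (7.54, 40 reads), in an intron of CXADR, the coxsackievirus and adenovirus receptor, at chr21:18917082-18917395 (7.54, 40 reads), and 79.7 kb upstream of ZWINT, a kinetochore protein gene (7.36, 39 reads). The fifth, 338 kb downstream of EBF1, was only 0.54 kb from an ICRF-193 peak. All 5 were in the ∆HD and N-C1 lists and 4 were in the untreated list. With equal numbers the SYT4 peak again led, followed by peaks in TANC2 and near ADGRL4, RALYL and ZDHHC21 with fold enrichments of 7.93 to 7.72. Each of these 4 overlapped a weaker ICRF-193 peak, of 5.19 to 5.68, that ranked too low to enter.

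The 5 strongest ICRF-193-only peaks ran from 13.0 to 11.4. The first lay 46.8 kb upstream of AKR1C1, an aldo-keto reductase gene (65 reads, 55.4 kb from the nearest camptothecin peak), with 5 YTAWTAR matches in one A/T-rich stretch. The second lay 28.2 kb upstream of ENPP1 (12.8) and held 2 CTAATAR matches. The third lay 759 kb downstream of GALC (12.4, 62 reads). The others were intronic, in NETO1 (chr18:70471091-70471604) and in CHD6, a chromatin remodeller gene (chr20:40173103-40173505), each at 11.4 with 57 reads and with 81% and 85% A/T. The AKR1C1, ENPP1 and CHD6 peaks were absent from ∆HD, and the ENPP1, NETO1 and CHD6 peaks from N-C1. The same 5 led with equal numbers.

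The largest changes of rank at shared pairs were measured as percentiles of lists of unequal length. A shared peak stands higher in the list with the longer weak tail, so the sizes of moves in the 2 directions cannot be compared. The first pair ranked higher with ICRF-193, 922 kb upstream of PTPRD, stood at percentile 3.42 of the camptothecin list (fold enrichment 4.11, 21 reads) and 80.9 of the ICRF-193 list (12.02, 60 reads). The second lay in an intron of PTPRC, the leukocyte CD45 gene, at chr1:198690271-198690911, with 24 and 79 reads, a depth-scaled ratio of 3.55. The third was intronic in FSTL5, with 20 and 51 reads. In the other direction, the peak 181 kb upstream of NDST4, a heparan sulfate sulfotransferase gene, had 37 reads with camptothecin and 22 with ICRF-193, a ratio of 0.642, and fell from percentile 55.1 to 9.48. The next, upstream of ALG10B and CDH6, fell by 45.2 and 44.05 percentiles. The other named pairs lay near TTC39C and NUTM2A, higher with ICRF-193, and in FAM172A and near AL354718.1, higher with camptothecin.

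Drug-specific and shared summits were all denser in longer genes, and fewer camptothecin-only summits lay in genes. Of camptothecin-only summits 34.3% (31.8 to 36.7) were in promoters, exons or introns of protein-coding transcripts, against 38.5% (37.7 to 39.3) of ICRF-193-only and 37.9% (37.3 to 38.5) of shared summits. The interval of the difference between the specific classes, 4.23 points (1.68 to 6.78), reached 0 for peaks at least 1000 bp from the other list (-0.0590 to 5.38) and with transcripts of every type (-0.235 to 5.08). Protein-coding transcripts covered 44.1% of the genome. Promoters held 0.475% and 0.485%, against 1.51% of the genome. Counting gene bodies with 5 kb on either side, 478 of 20136 genes (2.37%) held a camptothecin-only summit and 3320 (16.5%) an ICRF-193-only summit. The ICRF-193-only share of ICRF-193 summits in gene bodies hardly moved with length, from 43.1% in genes up to 20 kb to 38.5% above 500 kb. Over the same bins of length, density went from 0.139 to 0.667 camptothecin-only, 1.87 to 6.14 ICRF-193-only and 2.47 to 9.79 shared summits per Mb. In genes of 50 kb or more the share was 38.9% in the first of 5 equal stretches of the body and 38.9% in the last, and the median ratio of strong pairs there was 1.34 in both. In the 10 kb upstream of the start and downstream of the end it was 1.28 and 1.27, over 139 and 101 strong pairs.

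The genes with the most drug-specific summits were long, and 5 of the 10 that led one class also led the other. CSMD3, a giant membrane protein gene on chromosome 8, led both with 10 camptothecin-only, 37 ICRF-193-only and 63 shared summits over 1214 kb. EYS, a photoreceptor matrix gene, had 6, 25 and 43, and PTPRD, a synaptic receptor phosphatase, had 5, 31 and 35. By camptothecin-only summits followed RYR2, the cardiac ryanodine receptor, with 5 against 10 ICRF-193-only, then CCSER1, RIMS2, SGCD, SYT14 and VPS13B with 4 each and ANKRD36 with 3, the last taken in alphabetical order from several genes with 3. ANKRD36 has near-identical copies, so its reads are uncertain. SYT14 was the only one of the 10 with more camptothecin-only than ICRF-193-only summits, 4 against 3. By ICRF-193-only summits followed PCDH15, a protocadherin of hair cells, with 30, ROBO1, an axon guidance receptor, with 22, VPS13B with 20, LRP1B and RIMS2 with 19, and CTNNA3 and FSTL5 with 18. ROBO1 had 0 camptothecin-only and 10 shared summits, so 68.8% of its ICRF-193 summits were specific, next to 66.7% in ANKRD36 and 51.4% in FSTL5, which also had 0 camptothecin-only. Its 6 strong pairs had a median ratio of 1.33. All 190 genes with at least 5 strong pairs had a median ratio above 1. Among the 50 with at least 10, it ran from 1.196 in SGCZ (14 pairs) to 1.53 in NCAM2 (12 pairs), both genes of membrane proteins.

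**Figure D5:**
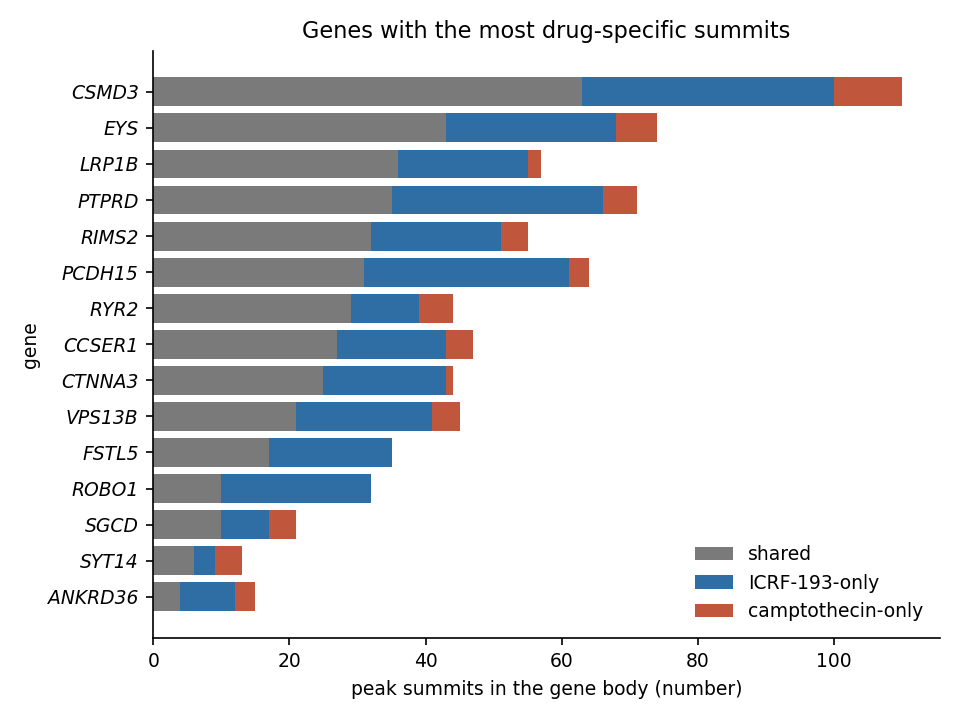
Number of peak summits in the gene body (horizontal) for the 10 genes with the most camptothecin-only and the 10 with the most ICRF-193-only summits, 15 in all (vertical), split into shared, ICRF-193-only and camptothecin-only. CSMD3 holds the most of each class, with 63, 37 and 10, and ROBO1 and FSTL5 hold no camptothecin-only summit.

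Lists of genes linked to the drugs or the cells were read against the shares over all genes, 2.37% with a camptothecin-only and 16.5% with an ICRF-193-only summit. Of 20 genes for topoisomerases and repair of their DNA complexes, 1 (5%) held a camptothecin-only and 4 (20%) an ICRF-193-only summit, near those shares. These were TOP2B, encoding topoisomerase II beta, with 1 of each, TDP1, which removes trapped topoisomerase I from DNA ends, with 1 ICRF-193-only, TOPBP1, a checkpoint activator, with 1, and RBBP8, which starts resection of breaks, with 4. Of 20 p53 target genes 0 and 1 (5%) did (MDM2, the negative regulator of p53), and of 20 immediate-early genes 0 and 1 (FOSB). Of 20 basal mammary genes only TP63, the basal lineage factor, held ICRF-193-only summits, 3, beside 4 shared. Of 20 genes of the epithelial to mesenchymal transition, 1 (5%) and 4 (20%) did: ZEB1, a repressor of epithelial genes, with 1 and 2, TGFB2 with 0 and 2, and CDH2 and TWIST1 with 0 and 1.

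Longer genes held specific summits in larger shares. All 20 large genes of common fragile sites, with a median length of 1529 kb against 27.2 kb for all protein-coding genes, held an ICRF-193-only summit and 14 (70%) a camptothecin-only summit. Their 311 shared and 201 ICRF-193-only summits included 35 and 31 in PTPRD, and 21 and 13 in DMD, the dystrophin gene. Median ratios of strong pairs ran from 1.21 in CSMD1 to 1.42 in DMD. Of 29 neural adhesion genes, with a median length of 135 kb, 3 (10.3%) held a camptothecin-only, 12 (41.4%) an ICRF-193-only and 19 (65.5%) a shared summit, against 2.37%, 16.5% and 21.4% of all genes. The cadherin CDH18 had 1 and 16, beside 21 shared, and the glypican GPC5 had 0 and 13, beside 35 shared. Length was not matched in these counts, and the peaks of 1 gene share their surroundings. All the gene lists were chosen with earlier results of these data known, so their shares cannot test for an excess over all genes.

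The label of the cells could not be checked by expression, since the lists hold peaks. Within 1000 bp of the start, ATAC-seq of native cells had peaks at 5 of 6 basal mammary genes (KRT5, KRT14, EGFR, ITGA6 and LAMB3, not TP63), 2 of 5 luminal genes (FOXA1 and KRT8) and 0 of 3 lymphocyte genes. With Satb1 these were 5, 3 and 1. No Satb1 peak of either drug lay at these 14 starts. Over the whole lists, promoters held only 0.462% of camptothecin and 0.466% of ICRF-193 peaks. The share of all starts with such peaks was not taken, so these counts do not identify the cells.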

How the data were processed

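ChIP-seq of Satb1-eGFP and ATAC-seq in MCF10A were used as 7 peak lists, grouped by sample title; the other 13 of the 20 samples were not used here. The authors used cutadapt for trimming, Bowtie2 for alignment to hg19 and MACS2 for peaks against input, with broad calls for ATAC-seq. MACS2 was run with default parameters, and the methods state a stricter false discovery rate than the weakest deposited peaks have (−log10 q of 1.39 with camptothecin and 1.34 with ICRF-193). Versions of Bowtie2 and MACS2 and pooling of duplicates are not given in the sources used here. The fold enrichment deposited for each peak is the ratio of summit pileup to local background. The authors also deposited MACS2's −log10 of the p-value and of the q-value, and a score computed from the latter.

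Overlap needed 1 bp. Classes were compared for whole lists and for equal numbers ranked by fold enrichment. Sequence came from the supplied GRCh37 genome, where 0 peaks ran past a chromosome end, and genes from GENCODE 44 lifted to GRCh37. Summits were assigned in the order promoter (1000 bp upstream to 100 bp downstream), exon, intron. Pileup and background were solved from fold enrichment and p-value with MACS2's formulas, where the background equalled the list's modal value (82.1% of camptothecin and 81.9% of ICRF-193 peaks). Of these pileups, 100% and 99.9967% were whole reads within 0.1, and their ratio gives relative depth; absolute depth is unknown. Summits held a median of 35 and 34 reads.

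Named peaks were the 3 strongest shared, the 5 strongest of each specific class (also with equal numbers) and the 5 largest rank differences each way; named genes were the 10 with the most specific summits of each kind and list members holding one. Members and lists were chosen with earlier results of these data known. No test was run, since there was 1 list per condition. The functions were tested on simulated data against bedtools 2.31.1. Alternatives covered overlap, threshold, ranking, window, motif and annotation; the pileup ratio, its alternatives and the removal of 7 bins of 1 Mb were added after seeing the data. Computation used pandas 2.3.3, pysam 0.24.0, numpy 2.4.6, scipy 1.17.1 and matplotlib 3.10.9 under Python 3.11.15.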

Additional observations from a re-analysis of the deposited data

How the results depend on the processing

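No paired analysis was possible because there was 1 list per condition and the labels carry no replicate numbers. Of 49 alternatives, 26 stayed within the 95% interval of the reported value, 21 moved and 2 reversed. The share of camptothecin peaks found again became 92.0% with reciprocal overlap of 50%, 88.9% with summits within 100 bp, 94.79% (94.7862) with fold enrichment of 5 or more and 94.79% (94.7919) with −log10 q of 5 or more. For ICRF-193 peaks these were 60.3%, 58.3%, 63.7% and 62.7%. With equal numbers the share became 80.1% with reciprocal overlap and 88.3% for the top 5000. Rank agreement became 0.876 among equal numbers. The A/T difference became 1.85 points with equal numbers, 1.28 averaged over 4 bands of fold enrichment and 2.00 in 100 bp. The YTAWTAR difference fell to 1.047 points (-0.323 to 2.42) for specific peaks at least 1000 bp away and reversed to -2.19 points with CTAATAR. The accessible difference became -3.54 points with equal numbers and -0.551 with native cells. The untreated difference reversed to -3.07 points (-5.05 to -1.09) over 4 bands of fold enrichment. The pileup ratio became 1.29 over every pair with both pileups, 1.28 by fold enrichment of every pair and 1.31 above a mean pileup of 50, and its A/T contrast, highest over lowest band, went from 1.12 to 1.096 there. The causes were not tested.

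Absence of a peak does not show absence of binding: the weakest peaks had 17 and 16 reads. Weak pairs enter only where both lists passed the threshold, which limits their ratios. All lists hold 1 library or pool, and neighbouring peaks are not independent, so the intervals are narrower than a replicate error.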

Other observations

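Per 1 Mb, the numbers of camptothecin and ICRF-193 peaks had a Spearman rho of 0.948 across 2838 bins, and bins share copy number and base composition. ICRF-193 peaks were more numerous in 2551 bins and camptothecin peaks in 33. There were 53 bins with ICRF-193 peaks only and 0 with camptothecin peaks only.

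Camptothecin-only peaks were most numerous at chromosome 21, 10000001 to 11000000, with 21 of 66 camptothecin peaks, beside 24 ICRF-193-only peaks of 68. Next came chromosome 15, 20000001 to 21000000, and chromosome 16, 32000001 to 33000000, with 9 each. Bins with 7 lay on chromosome 1, 142000001 to 143000000, on chromosome 9, 68000001 to 69000000, and on chromosome 8, where the neighbouring pair from 113000001 and 114000001 overlaps CSMD3. These 7 bins, chosen for their camptothecin-only peaks, held 4.55% of camptothecin-only and 1.01% of ICRF-193-only peaks. By chromosome, camptothecin-only peaks were 10.6% of camptothecin peaks on chromosome 21 and 7.70% on chromosome 1, against 1.71% on chromosome 19 (2 of 117 peaks). Of the 44 camptothecin-only peaks on chromosome 21, 21 lay in the single bin named above. Uniqueness of read mapping in these bins was not tested.

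Of camptothecin-only peaks 45.6% lay within 10 kb of an ICRF-193 peak, and 10.5% within 1 kb. Of ICRF-193-only peaks 26.3% and 4.22% lay as near to a camptothecin peak, from a list with fewer peaks.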
